A study of Mus musculus with 6 samples.

Results

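The genes described here are Lin28a, Lin28b, Gdf11, Hmga2, Igf2bp1, Igf2bp2 and Igf2bp3, which belong to the trunk-to-tail and Lin28-let-7 timing systems. They were chosen by symbol, as transcript clusters (groups of array probes that cover 1 transcribed locus) annotated to exactly 1 of these symbols. Of the 7 genes, 5 had such a cluster, among 22180 genes in all. Igf2bp1 shares its only cluster with a miRNA gene in the annotation and Igf2bp2 has no cluster in the annotation used here, so neither was analysed here.

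Neural progenitor cells (NPCs; the labels call them NSCs) were derived from the tail of mouse embryos (3 arrays) or from their brachial level, the tissue between the forelimbs and the hindbrain (3 arrays). Both groups carried no genetic change or treatment in the labels, came from E12.5 embryos by the titles (E12 in other descriptions), and were cultured as neurospheres with bFGF and EGF in a medium free of serum. According to the methods, somite tissue was dissected away from the tail as far as was possible. Values are log2 RMA signals, background-corrected and quantile-normalized, so a difference of 1 is a doubling within 1 cluster, while values of different clusters cannot be set against each other.

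Lin28a and Lin28b are RNA-binding proteins of early embryonic cells. They hold back the maturation of let-7 miRNAs, which rise as tissues mature and repress a set of growth and progenitor genes that includes Hmga2, the Igf2bp genes and Lin28 itself. Gdf11 is a secreted ligand of the TGF-beta family that marks the switch from trunk to tail formation in the mouse embryo and acts upstream of the posterior Hox genes.

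The let-7 family is shown first, because its members share the bases that define a target and differ outside them. Capitals mark the seed (bases 2 to 8) of the mature RNAs, printed 5′ to 3′ from RefSeq (GRCm38.p6). All 9 mature let-7 names of the 5p arm carried the seed GAGGUAG, and the last RNA is miR-196a, which has a gene in the HoxB cluster (Mir196a-1) and a gene in the HoxC cluster (Mir196a-2), both described with the Hox genes below.
let-7a-5p: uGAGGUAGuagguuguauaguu
let-7b-5p: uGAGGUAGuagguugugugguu
let-7c-5p: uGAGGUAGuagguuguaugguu
let-7d-5p: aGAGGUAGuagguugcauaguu
let-7e-5p: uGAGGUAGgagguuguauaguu
let-7f-5p: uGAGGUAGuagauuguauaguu
let-7g-5p: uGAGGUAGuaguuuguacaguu
let-7i-5p: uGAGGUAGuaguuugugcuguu
miR-98-5p: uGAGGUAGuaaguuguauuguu
miR-196a-5p: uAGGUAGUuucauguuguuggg
The seed of miR-196a shares a run of 6 bases, AGGUAG, with the let-7 seed, set off by a base.

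The precursors carry the part that Lin28 proteins read. The zinc knuckles of Lin28 bind GGAG in the terminal loop, just before the 3p arm. GGAG (RNA strand only, capitals below) stood within the 12 bases before the 3p arm in 9 of the 12 mouse let-7 precursors, against 5.92% of the 692 RefSeq hairpins with such a window. Shown are the precursors with the largest positive differences between tail and brachial NPCs, of which let-7b lacks GGAG.
let-7f-1 (chr13:48537829-48537917, minus strand): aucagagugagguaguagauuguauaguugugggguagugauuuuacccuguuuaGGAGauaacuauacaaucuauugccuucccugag
let-7d (chr13:48536012-48536114, minus strand): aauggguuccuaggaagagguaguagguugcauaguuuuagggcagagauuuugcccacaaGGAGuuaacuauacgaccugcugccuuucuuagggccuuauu
let-7b (chr15:85707319-85707403, plus strand): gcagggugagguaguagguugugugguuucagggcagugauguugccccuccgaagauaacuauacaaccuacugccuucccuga
let-7i (chr10:122985640-122985724, minus strand): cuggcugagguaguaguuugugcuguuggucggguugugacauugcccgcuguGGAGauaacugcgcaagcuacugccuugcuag

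The groups differed in more than axial level, and this touches the values below. A summary of 14 somite and mesenchyme markers averaged 9.44, 9.10 and 8.13 in tail replicates 1 to 3, and 8.21, 5.25 and 5.25 in brachial replicates 1 to 3. Of the 14 markers 13 had a log2 difference above 0, 10 of them higher at an unadjusted p under 0.05, and 0 were called. Brachial replicate 1 lay with the tail arrays on this list, and it also had the highest mean of the 7 skeletal muscle markers (6.89, against 4.85 to 5.21 in the other arrays). The 11 neural progenitor markers averaged 8.67 to 8.95 in the tail arrays and 8.99 to 9.19 in the brachial arrays. Of these, 3 were above 0 and 8 below, from 0.83 (Hes1) to -1.16 (Sox3). In the limma test 1 was higher and 2 were lower at an unadjusted p under 0.05, and 0 were called. Sox2, the transcription factor that defines neural progenitors, was at 9.55, 10.64 and 10.23 in tail NPCs and 10.72, 10.78 and 10.77 in brachial NPCs. Glia markers were below 0 in 10 of 11 cases (median log2 difference -0.76), with 4 lower before adjustment (p under 0.05) and 0 called by limma. They averaged 7.89, 7.92 and 9.28 in tail replicates 1 to 3 and 9.27, 9.72 and 8.99 in brachial replicates 1 to 3. Neuron markers were below 0 in 7 of 9 cases, likewise with 4 lower before adjustment and 0 called, and averaged 6.42, 6.76 and 6.61 in tail NPCs and 7.34, 6.82 and 7.16 in brachial NPCs. The part of these cell types in the differences below was not tested. In such bulk samples fewer cells of a type and less RNA per cell cannot be told apart. Neither the labels nor the methods say whether the arrays of a group came from separate cultures, so the p-values measure only the spread between these samples.

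None of the 5 measured genes rose or fell between tail and brachial NPCs in the limma test at an adjusted p under 0.05. Over all genes that test called 0.0631% as higher and 0.0406% as lower in tail NPCs (14 and 9 of 22180). At an unadjusted p under 0.05, Gdf11 was the 1 member on the higher side and Lin28b the 1 member on the lower side, where 5.43% and 6.39% of all genes passed. These shares are also the background for the unadjusted limma counts given for the gene lists. The methods' t-test gave 0 calls over all genes after adjustment. Before adjustment it passed 816 genes as higher and 1050 as lower in tail NPCs.

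**Figure D1:**
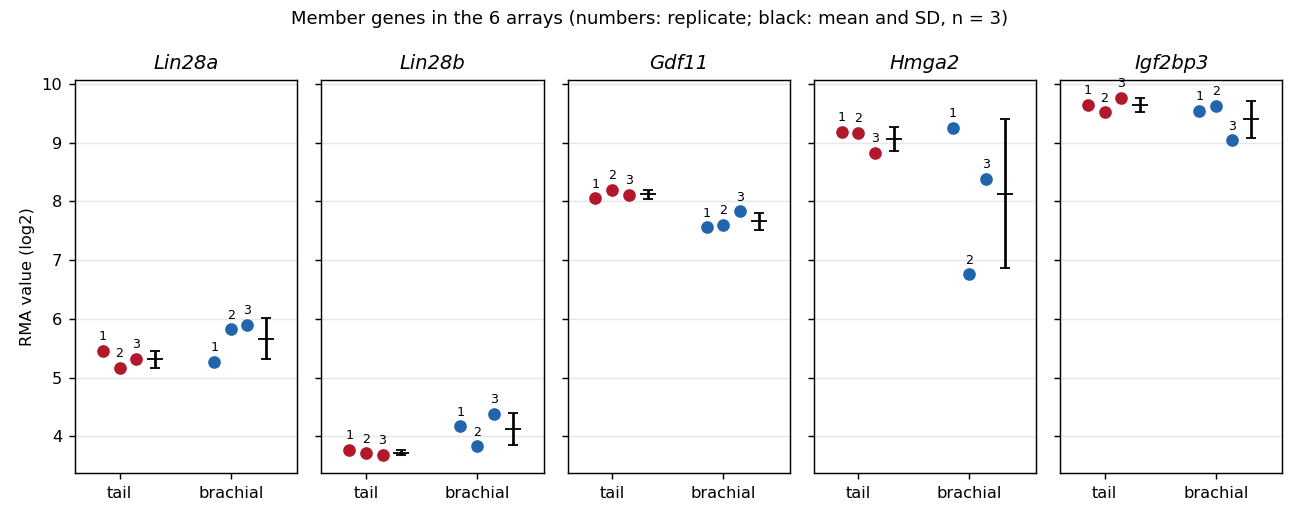
RMA value (log2, y axis) of the 5 measured genes in 3 tail arrays (red) and 3 brachial arrays (blue), with replicate numbers and the mean and SD in black. The groups are separate for Lin28b and Gdf11 only, and brachial replicate 2 stands far below the other arrays for Hmga2.

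Lin28a, the paralog found mainly in the cytoplasm, had values of 5.46, 5.17 and 5.31 in tail replicates 1 to 3 and of 5.27, 5.82 and 5.90 in brachial replicates 1 to 3. The groups overlapped, because brachial replicate 1, the brachial array high in mesenchyme markers, was lower than tail replicates 1 and 3. Its mean in tail NPCs was 5.31 ± 0.15, against 5.66 ± 0.35 in brachial NPCs (n = 3 arrays each, ± SD), a log2 difference of -0.35 (standard error 0.20, 95% interval -0.82 to 0.11, limma adjusted p = 0.538). The interval corresponds to a level in tail NPCs of 0.568 to 1.08 times that in brachial NPCs. The difference was -0.55 without brachial replicate 1 and -0.23 without brachial replicate 3.

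Lin28b, the paralog that also acts in the nucleus, had values of 3.77, 3.71 and 3.69 in tail NPCs and of 4.17, 3.83 and 4.38 in brachial NPCs. Every tail array was below every brachial array, by 0.059 between the nearest arrays, tail replicate 1 and brachial replicate 2. The mean in tail NPCs was 3.72 ± 0.041, against 4.13 ± 0.28 in brachial NPCs (n = 3 arrays each, ± SD). The log2 difference of -0.40 (standard error 0.16, 95% interval -0.78 to -0.018) had an unadjusted limma p of 0.0426 and an adjusted p of 0.408. The mean over all arrays, 3.93, was below 4.86, the median of the cluster means on the array, so Lin28b was read near the dim end of the scale. Its difference was -0.55 without brachial replicate 2 and -0.28 without brachial replicate 3. Lin28a and Lin28b both had their lower mean in tail NPCs.

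Hmga2 encodes an architectural chromatin protein and carries many let-7 sites in its transcript. It had values of 9.18, 9.17 and 8.82 in tail NPCs, against 9.25, 6.76 and 8.39 in brachial NPCs. Brachial replicate 1 was the highest of the 6 arrays and brachial replicate 2 the lowest, so the groups overlapped and the brachial spread was wide. The mean in tail NPCs was 9.06 ± 0.20, against 8.13 ± 1.26 in brachial NPCs (n = 3 arrays each, ± SD), a log2 difference of 0.93 (standard error 0.57, 95% interval -0.44 to 2.29, limma adjusted p = 0.585). That difference was 0.24 without brachial replicate 2 and 1.48 without brachial replicate 1 (limma adjusted p = 0.847 and 0.248). The interval runs from 0.739 to 4.89 times the brachial level.

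Igf2bp3, an oncofetal protein that binds and stabilizes mRNAs such as that of Igf2, had values of 9.64, 9.51 and 9.77 in tail NPCs and of 9.54, 9.62 and 9.04 in brachial NPCs. Tail replicate 3 was highest and brachial replicate 3 lowest, and the other arrays lay among each other. The mean in tail NPCs was 9.64 ± 0.13, against 9.40 ± 0.32 in brachial NPCs (n = 3 arrays each, ± SD), a log2 difference of 0.24 (standard error 0.18, 95% interval -0.19 to 0.67, limma adjusted p = 0.664). Without brachial replicate 3 the difference was 0.059. The interval allows a level in tail NPCs of 0.874 to 1.60 times that in brachial NPCs.

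Gdf11 had values of 8.05, 8.20 and 8.11 in tail NPCs, against 7.56, 7.60 and 7.83 in brachial NPCs. Every tail array was above every brachial array, with 0.22 between tail replicate 1 and brachial replicate 3. Brachial replicate 1, the brachial array highest in mesenchyme markers, had the lowest Gdf11 value of all. Its mean of those markers was 8.21, beside 9.44, 9.10 and 8.13 in tail replicates 1 to 3. The part of mesenchyme cells in the Gdf11 difference was not tested. The mean in tail NPCs was 8.12 ± 0.076, against 7.66 ± 0.15 in brachial NPCs (n = 3 arrays each, ± SD), a log2 difference of 0.46 (standard error 0.13, 95% interval 0.16 to 0.76), or 1.37-fold (1.11 to 1.69). The unadjusted limma p was 0.00907 and the adjusted p 0.285, so the difference did not pass the test over all genes. Left-out arrays moved the log2 difference only between 0.41 and 0.54, the narrowest relative range of the 5 genes. Complete separation of the groups with tail higher was seen in 6.88% of all genes and with tail lower in 9.36%, beside 1 member each (Gdf11 and Lin28b).

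**Figure D2:**
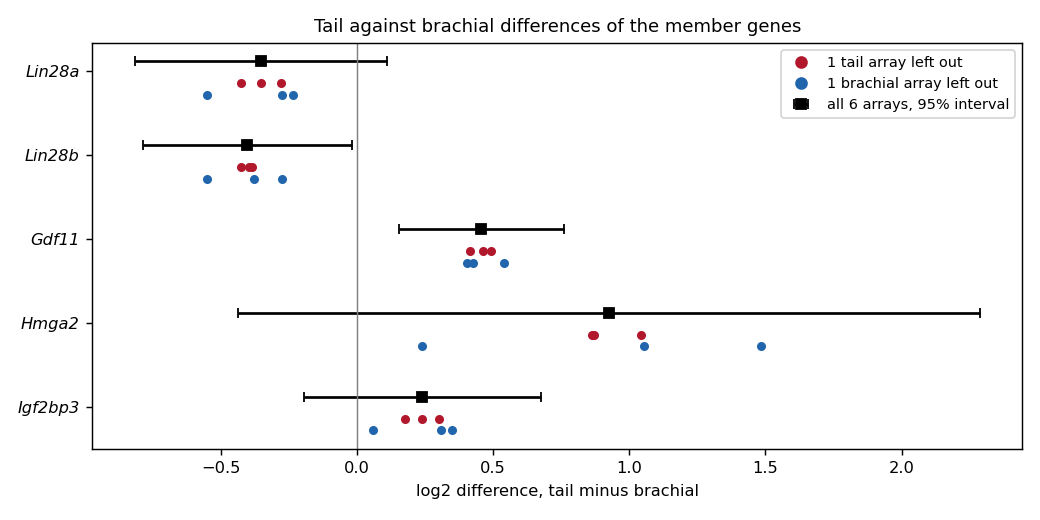
Log2 difference, tail minus brachial (x axis), of the 5 measured genes: black squares and bars give the value and 95% interval from all 6 arrays, red points leave out 1 tail array and blue points 1 brachial array. The intervals of Lin28b (-0.78 to -0.018) and Gdf11 (0.16 to 0.76) lie on 1 side of 0, and the points of Hmga2 spread from 0.24 to 1.48.

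Genes whose values followed Lin28b or Gdf11 over the 6 arrays are named as a description, since with 6 arrays in 2 groups many genes reach a high correlation. Among 17214 genes that varied enough to be compared, 1700031A10Rik (Pearson r = 0.997), Map3k15 (r = 0.994) and 1700013N06Rik (r = 0.993) were nearest to Lin28b, and 45 genes had r over 0.95. The genes nearest to Gdf11 among 17694 were Tmc1 (r = 0.988), Olfr1095 (r = 0.986) and Kantr (r = 0.976), and 18 genes had r over 0.95. These points share their groups and arrays.

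The let-7 genes were read through clusters at their loci, which detect precursor or host RNA and not the mature miRNA. None of the 12 precursors was called (0 at an adjusted p under 0.05), and 2 were higher and 0 lower in tail NPCs at an unadjusted p under 0.05. The median log2 difference was 0.18, with 10 above 0 and 2 below, where the median of all genes was -0.028. Only 1 of the 12, Mirlet7i, had a mean above 4.86, the median of the cluster means, so the others were read in the dim part of the scale. Mean values over the 12 were 3.70, 3.78 and 3.80 in tail replicates 1 to 3 and 3.69, 3.01 and 3.42 in brachial replicates 1 to 3. Brachial replicate 2, the array with the lowest Hmga2 value, was also the lowest array for 6 of the 12 precursors. Without it the median difference of the 12 was 0.053.

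Among the precursors, each taken at its cluster with the highest mean, let-7i showed the clearest separation. Mirlet7i was at 5.59, 5.69 and 5.85 in tail NPCs and at 5.36, 4.74 and 5.01 in brachial NPCs, a log2 difference of 0.67 (standard error 0.18, unadjusted p = 0.00772, limma adjusted p = 0.277). Every tail array was higher, and the difference was 0.53 to 0.84 with any single array left out.

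Mirlet7d and Mirlet7f-1 lie close together on chromosome 13 with Mirlet7a-1. Mirlet7d was at 5.03, 4.47 and 4.13 in tail NPCs and at 4.05, 2.53 and 3.47 in brachial NPCs (log2 difference 1.19, standard error 0.41, limma adjusted p = 0.348). Mirlet7f-1 was at 4.80, 4.89 and 4.01 in tail NPCs and at 3.77, 1.38 and 3.85 in brachial NPCs (log2 difference 1.57, standard error 0.66, limma adjusted p = 0.423). In both, every tail array was higher and brachial replicate 2 was lowest, and without that array the differences were 0.78 for Mirlet7d and 0.76 for Mirlet7f-1. A dimmer cluster of Mirlet7f-1 differed by 0.38 with overlapping groups. Mirlet7a-1, from the same locus, differed by 0.18 with overlapping groups.

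On the other side of 0 stood Mirlet7f-2, with 1.34, 0.99 and 1.27 in tail NPCs and 1.36, 1.39 and 1.73 in brachial NPCs (log2 difference -0.30, limma adjusted p = 0.529), at the bottom of the array's scale. Mirlet7e was at -0.030 in its brighter cluster. Its dimmer cluster was lower in every tail array (-0.55), by 0.36 between the nearest arrays. In limma over all clusters its unadjusted p was 0.0145 and its adjusted p 0.425. The 9 precursors with GGAG before the 3p arm had differences of -0.30 to 1.57 (median 0.17) and the 3 without it 0.016 to 0.71 (median 0.32), so both ranges overlapped widely.

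**Figure D3:**
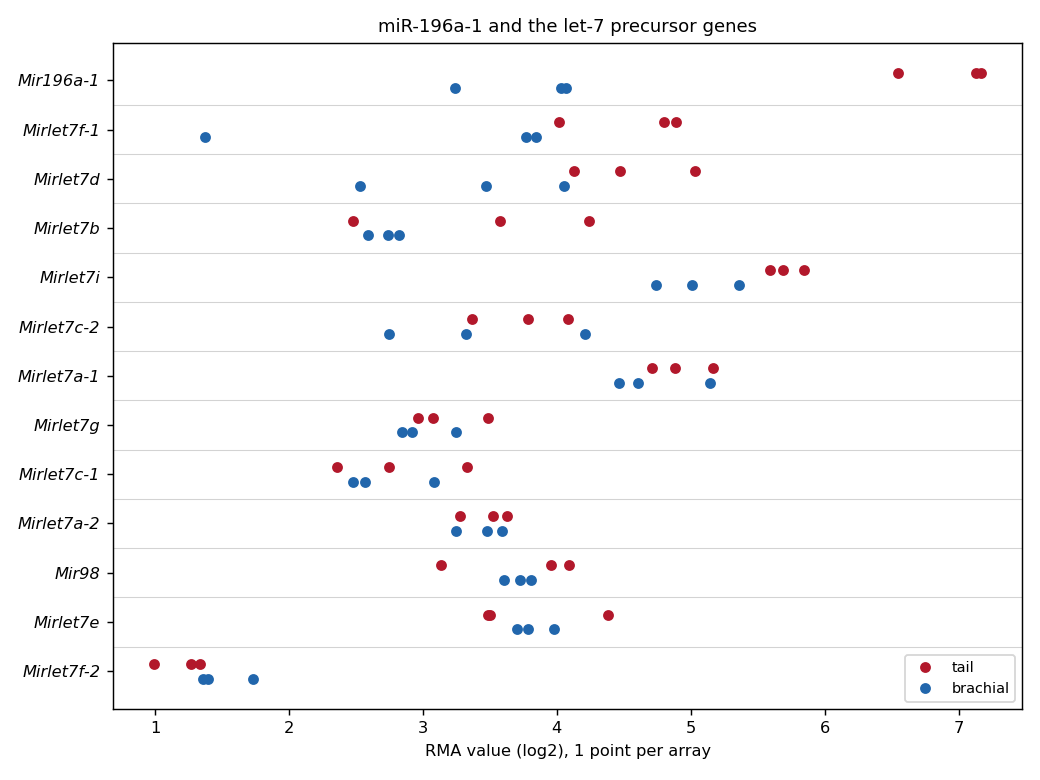
RMA value (log2, x axis) of Mir196a-1 and the 12 let-7 precursor genes, 1 point per array, with tail arrays in red above brachial arrays in blue. Mir196a-1 has its groups far apart (6.55 to 7.17 in tail arrays, 3.24 to 4.07 in brachial arrays), while 8 of the 12 let-7 rows have groups that overlap.

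Factors that make, hold back or destroy let-7 gave 0 limma calls among 13 measured genes (with 1 higher and none lower before adjustment, at p under 0.05), with 7 above 0 and 6 below and a median log2 difference of 0.13. Tut4, the terminal uridylyltransferase that Lin28a recruits to let-7 precursors, was at 9.03, 9.30 and 8.96 in tail NPCs and at 8.82, 8.72 and 8.48 in brachial NPCs. All tail arrays were above the brachial ones, with a log2 difference of 0.42 (standard error 0.15, unadjusted p = 0.0276, limma adjusted p = 0.366). Its partner Tut7 differed by -0.020 (95% interval -0.44 to 0.40) and Dis3l2, the exonuclease that degrades uridylated let-7 precursors, by -0.058 (95% interval -0.42 to 0.30), with groups that overlapped in both. The highest difference of the 13 was that of Trim25, an RNA-binding ubiquitin ligase that acts with Lin28a, at 0.80 (95% interval -0.99 to 2.59, limma adjusted p = 0.738), also with overlapping groups.

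The 26 measured genes listed as let-7 targets, other than the members, gave 0 calls, with 13 above 0 and 13 below. Their median log2 difference of -0.035 lay beside -0.028 for all genes. At an unadjusted p under 0.05, 2 were higher and 5 lower in tail NPCs (5.43% and 6.39% of all genes). The groups were fully apart in 2 and 6 (6.88% and 9.36% of all genes). Target genes thus lay on both sides of 0 without a common direction.

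The cell cycle kinase gene Cdk6 had the highest difference of the targets, with 8.41, 9.57 and 9.57 in tail NPCs, against 7.14, 6.56 and 4.11 in brachial NPCs (log2 difference 3.25, standard error 0.78, limma adjusted p = 0.244). Its partner cyclin gene Ccnd1 stood on the other side, with 9.89, 9.35 and 10.21 in tail NPCs and 10.65, 10.94 and 11.28 in brachial NPCs (log2 difference -1.14, standard error 0.26, limma adjusted p = 0.223). Neither pair of groups overlapped. Gatm, which encodes the enzyme of the first step of creatine synthesis, was at 5.86, 5.76 and 8.19 in tail NPCs and at 9.09, 9.84 and 10.04 in brachial NPCs (log2 difference -3.05, limma adjusted p = 0.212). For Gatm tail replicate 3 lay toward the brachial arrays. The limma adjusted p was 0.00967 without it and up to 0.634 without another array. Calls over all genes also rose without tail replicate 3, to 138 higher and 128 lower, from 14 and 9.

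Smaller differences were found for the cell cycle transcription factor genes E2f6 (log2 difference -0.52) and E2f5 (-0.43) and for Igdcc3 (-0.39), each lower in every tail array (limma adjusted p = 0.313, 0.370 and 0.353). Thbs1, which encodes the matrix protein thrombospondin, differed by 2.11 (limma adjusted p = 0.338) with tail replicate 3 below brachial replicate 1. Trim71, an RNA-binding ubiquitin ligase of early progenitors and a classical let-7 target, was at 5.96, 5.53 and 5.77 in tail NPCs and at 5.46, 5.78 and 5.68 in brachial NPCs (log2 difference 0.11, 95% interval -0.27 to 0.49). Its groups overlapped.

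**Figure D4:**
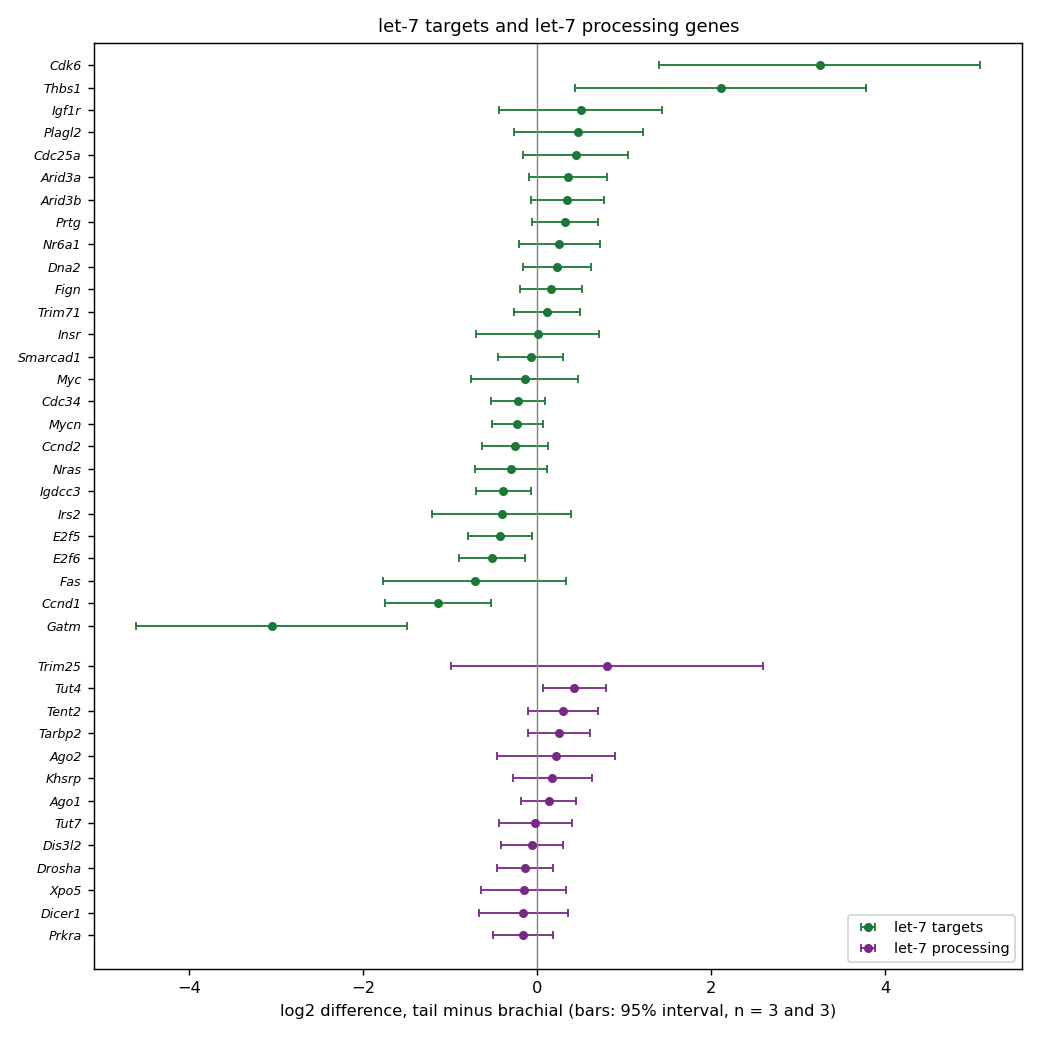
Log2 difference, tail minus brachial (x axis), with 95% interval for the 26 genes listed as let-7 targets (green) and the 13 let-7 processing genes (purple), 1 gene per row. Targets spread on both sides of 0 from 3.25 (Cdk6) to -3.05 (Gatm), and processing genes stay between -0.17 and 0.80.

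Igf2, whose mRNA is bound by the Igf2bp proteins and by Lin28, was at 10.51, 10.51 and 8.99 in tail NPCs and at 9.02, 5.45 and 5.46 in brachial NPCs. Brachial replicate 1 was just above tail replicate 3, and the log2 difference was 3.36 (standard error 0.99, limma adjusted p = 0.302). The adjusted p was 0.0304 without brachial replicate 1 and up to 0.720 without another array. Over all genes limma called 74 higher and 31 lower without brachial replicate 1. In the mesenchyme markers brachial replicate 1 likewise lay beside tail replicate 3, and their part in the Igf2 difference was not tested. Of the 11 measured genes listed as Lin28 relatives and oncofetal RNA-binding factors, 0 were called by limma, 2 were higher and none was lower before adjustment (p under 0.05), and the median log2 difference was 0.015.

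The Gdf11 pathway list held 43 measured genes other than Gdf11, of which 0 were called. It takes in related TGF-beta family genes such as Tgfb1, Tgfb3, Tgfbr2 and Tgfbr3, so its counts are not those of Gdf11 signalling alone. Of the 43 genes, 35 were above 0. At an unadjusted p under 0.05, 18 were higher and 1 lower in tail NPCs, where 5.43% and 6.39% of all genes passed. The groups were fully apart in 14 and 1, beside 6.88% and 9.36% of all genes. The median log2 difference was 0.43, against -0.028 for all genes. This list, like the others, was written with earlier results of these data known, so its counts and median only describe it. Mean values over the 43 genes were 7.24, 7.02 and 6.73 in tail replicates 1 to 3 and 6.68, 6.22 and 6.23 in brachial replicates 1 to 3. Tail replicates 1 and 2 were highest and brachial replicates 2 and 3 lowest in these means, as they were in the mesenchyme markers, a list that shares Dcn with the antagonists. The part of those cells in the pathway differences was not tested.

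Proteases that mature the ligand were above 0 in 7 of 7 cases, with a median of 0.62. Pcsk5, the convertase that cleaves the Gdf11 precursor, was at 7.57, 7.65 and 6.81 in tail NPCs and at 6.35, 6.15 and 5.64 in brachial NPCs. Its groups did not overlap, with a log2 difference of 1.30 (standard error 0.28, 95% interval 0.63 to 1.97, unadjusted p = 0.00258, limma adjusted p = 0.213). The adjusted p was 0.0437 without tail replicate 3 and up to 0.629 without another array. The related convertases Pcsk6 and Furin were also higher in every tail array, by 0.84 and 0.43 on the log2 scale (limma adjusted p = 0.253 and 0.364). Tll1, a tolloid protease of the kind that frees the ligand from its propeptide, differed by 1.73 with overlapping groups (limma adjusted p = 0.382).

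The other ligands were divided, with 5 of 8 above 0. Mstn, the closest relative of Gdf11, was dim and overlapping, at 3.28, 2.60 and 2.43 in tail NPCs and at 3.91, 2.70 and 3.01 in brachial NPCs (log2 difference -0.44, 95% interval -1.28 to 0.41). Tgfb3 was at 8.58, 8.09 and 7.85 in tail NPCs and at 6.93, 6.69 and 6.85 in brachial NPCs (log2 difference 1.35, standard error 0.20, unadjusted p = 3.17e-04, limma adjusted p = 0.107). Its adjusted p was 0.0325 without tail replicate 3 and up to 0.385 without another array.

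The activin subunit genes went opposite ways. Inhba was at 6.57, 6.76 and 5.18 in tail NPCs, against 4.94, 4.78 and 4.86 in brachial NPCs (log2 difference 1.31, limma adjusted p = 0.312). The adjusted p of Inhba was 0.0117 without tail replicate 3 and up to 0.720 without another array. Inhbb was at 5.77, 5.74 and 6.14 in tail NPCs, against 6.37, 6.65 and 6.50 in brachial NPCs (log2 difference -0.63, limma adjusted p = 0.253). Groups were apart in both genes. Tgfb1 differed by 1.66 with overlapping groups (limma adjusted p = 0.354).

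Of the 8 measured receptor and co-receptor genes 0 were called and 5 were above 0. The type II receptor genes Acvr2a and Acvr2b differed by 0.043 (95% interval -0.49 to 0.58) and 0.12 (95% interval -0.34 to 0.59). Of the type I receptor genes, Acvr1b differed by -0.32 (95% interval -0.71 to 0.072) and Tgfbr1 by 0.51 (95% interval 0.077 to 0.94, limma adjusted p = 0.364), and the groups overlapped in all 4. Larger values were found for the TGF-beta receptors. The co-receptor gene Tgfbr3 was at 7.70, 7.08 and 6.95 in tail NPCs and at 6.47, 4.96 and 5.13 in brachial NPCs (log2 difference 1.72, standard error 0.42, unadjusted p = 0.00473, limma adjusted p = 0.248). The adjusted p of Tgfbr3 was 0.0388 without brachial replicate 1 and up to 0.692 without another array. The type II receptor gene Tgfbr2 was at 7.30, 7.0 and 6.72 in tail NPCs and at 6.63, 5.74 and 5.48 in brachial NPCs (log2 difference 1.06, unadjusted p = 0.0122, limma adjusted p = 0.303). Both were higher in every tail array, and in both brachial replicate 1 was the brachial array nearest to the tail arrays, as in the mesenchyme markers.

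Antagonists were above 0 in 10 of 11 genes, with a median of 0.84. Smad7, the inhibitory Smad that is itself induced by this signalling, was at 6.43, 6.32 and 6.28 in tail NPCs and at 5.41, 5.44 and 4.99 in brachial NPCs. Its tail arrays lay close together and all above the brachial arrays, with a log2 difference of 1.06 (standard error 0.16, unadjusted p = 2.78e-04, limma adjusted p = 0.105). Dcn, which encodes the matrix proteoglycan decorin and is also on the mesenchyme list, was at 11.25, 11.20 and 10.44 in tail NPCs and at 9.94, 3.71 and 3.68 in brachial NPCs (log2 difference 5.19, limma adjusted p = 0.320). The adjusted p of Dcn was 0.00332 without brachial replicate 1 and up to 0.724 without another array. Fst, the secreted binding protein follistatin, was at 8.37, 6.52 and 5.33 in tail NPCs and at 5.53, 5.29 and 5.0 in brachial NPCs (log2 difference 1.46, 95% interval -0.18 to 3.11, limma adjusted p = 0.469). Its difference was 0.65 without tail replicate 1 and 2.17 without tail replicate 3. Tail replicate 1 stood far above the rest for Fst, and so it did for Fstl3 (7.80, against 6.29 and 6.04 in the other tail arrays and 6.21, 5.93 and 5.99 in brachial NPCs), whose difference without that array was 0.12. The follistatin-like gene Fstl1 differed by 1.49 with overlapping groups (limma adjusted p = 0.392). Wfikkn2, which encodes a binding protein of Gdf11 and Mstn, differed by -0.067 (95% interval -0.46 to 0.33).

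**Figure D5:**
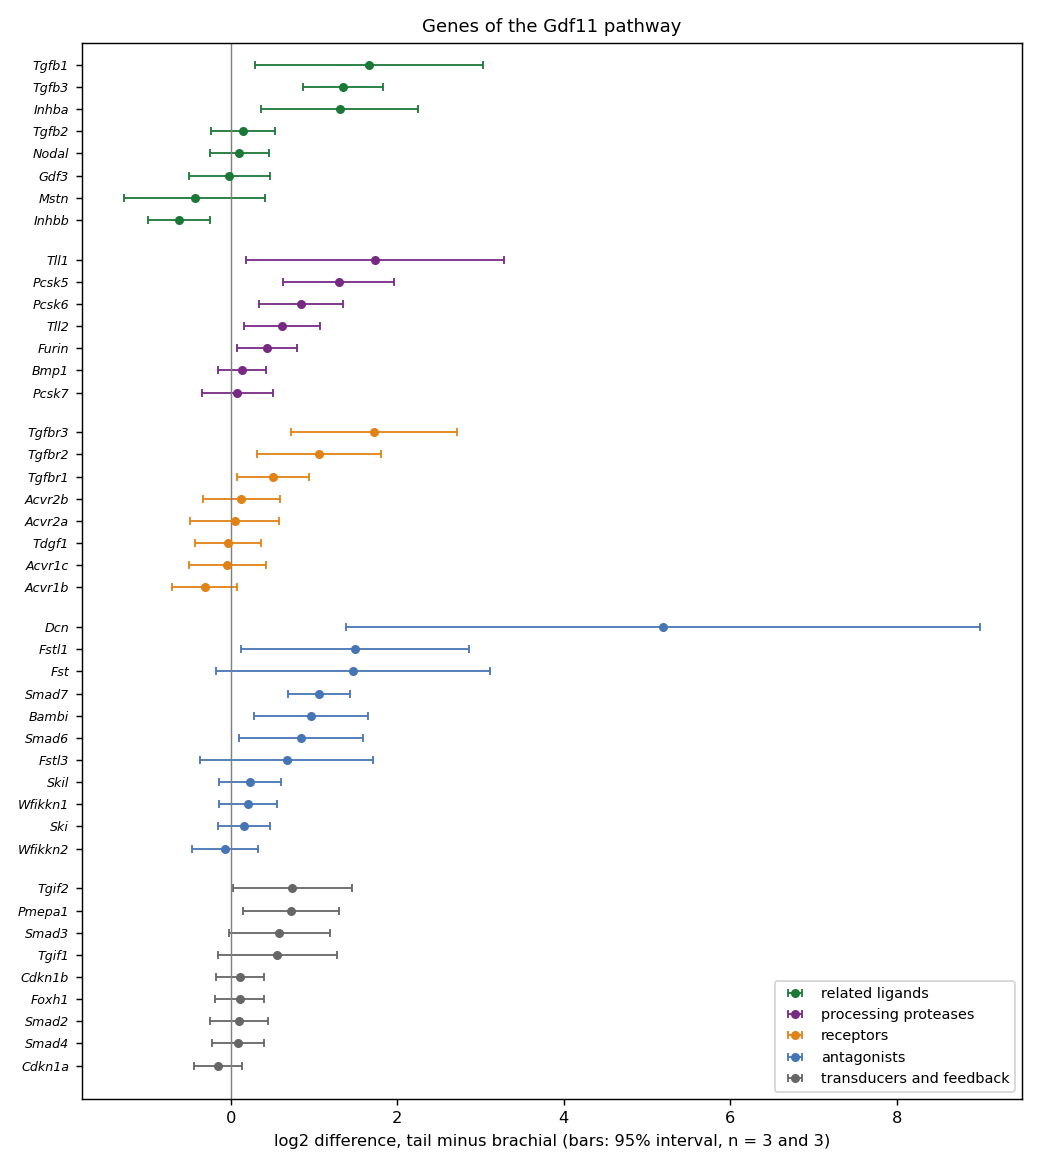
Log2 difference, tail minus brachial (x axis), with 95% interval for the 43 measured genes of the Gdf11 pathway list, which includes related TGF-beta family genes, 1 gene per row, coloured by role. Processing proteases lie above 0 in 7 of 7 rows and antagonists in 10 of 11, and Acvr2a, Acvr2b and Wfikkn2 lie close to 0.

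Of the 8 measured posterior Hox genes, which act downstream of Gdf11 in the embryo, 3 passed the test. They were the only called genes among the 17 measured trunk-to-tail genes, of which 3 rose in tail NPCs and 0 fell. The groups were fully apart with tail higher in 9 and with tail lower in 2, beside 6.88% and 9.36% of all genes. Hoxb13 was at 7.44, 7.99 and 7.16 in tail NPCs and at 4.27, 3.63 and 3.54 in brachial NPCs (log2 difference 3.72, standard error 0.28, limma adjusted p = 0.0163). Hoxc13 was at 7.59, 6.83 and 8.21 in tail NPCs and at 4.28, 4.55 and 4.66 in brachial NPCs (log2 difference 3.05, standard error 0.33, limma adjusted p = 0.0476). Hoxc10 was at 7.49, 6.89 and 7.89 in tail NPCs and at 4.71, 4.95 and 4.94 in brachial NPCs (log2 difference 2.56, standard error 0.25, limma adjusted p = 0.0331). In these 3 genes the groups lay far apart. Hoxa13 and Hoxd13 were higher in every tail array, by 1.41 and 1.67 on the log2 scale, without passing the test (limma adjusted p = 0.0991 and 0.140). Without tail replicate 3 their adjusted p was 0.0337 and 0.0436, and without another array it was up to 0.353 and 0.523. Hoxd11 was at 6.51, 8.11 and 7.51 in tail NPCs and at 4.12, 4.48 and 4.04 in brachial NPCs (log2 difference 3.17, standard error 0.39, limma adjusted p = 0.0609). The adjusted p of Hoxd11 was 0.0418 without tail replicate 3 and up to 0.320 without another array. Hoxd10 and Hoxc11 were also higher in every tail array, by 2.01 and 1.97 on the log2 scale (limma adjusted p = 0.107 and 0.322).

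All 3 calls were lost when some single arrays were left out. The adjusted p of Hoxb13 was 0.0610 to 0.115 when tail replicate 1, tail replicate 2, brachial replicate 2 or brachial replicate 3 was left out. For Hoxc10 it was 0.0575 to 0.237 without any 1 of the same 4 arrays. That of Hoxc13 was 0.0575 to 0.280 without any 1 array other than tail replicate 3. Their log2 differences stayed at 3.49 to 3.94 for Hoxb13, 2.33 to 2.83 for Hoxc10 and 2.71 to 3.40 for Hoxc13.

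The miRNA gene Mir196a-1, which lies between Hoxb9 and Hoxb13, rose in tail NPCs. It was at 6.55, 7.17 and 7.13 in tail NPCs and at 4.07, 3.24 and 4.03 in brachial NPCs, a log2 difference of 3.17 (standard error 0.28, limma adjusted p = 0.0232). The adjusted p was 0.0645 to 0.130 without tail replicate 1, tail replicate 2, brachial replicate 2 or brachial replicate 3. Mir196a-2, the gene in the HoxC cluster for the same mature miRNA printed above, differed by -0.064 (95% interval -0.43 to 0.30) with overlapping groups. Its 2 gene copies thus had unlike values, and the clusters do not read the mature RNA.

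The remaining trunk-to-tail genes were not called. Snai1, a transcription factor gene of mesenchyme formation, was higher in every tail array by 0.97 on the log2 scale (unadjusted p = 0.0122, limma adjusted p = 0.303). Cdx1, a caudal homeobox gene, and Sox2 were lower in every tail array, with log2 differences of -0.30 and -0.61 (limma adjusted p = 0.456 and 0.434). Nr6a1, a nuclear receptor gene of the trunk phase and a let-7 target, differed by 0.26 (95% interval -0.21 to 0.72), Isl1, a tail and hindlimb gene, by 0.085 (95% interval -0.92 to 1.09) and Pou5f1, a pluripotency factor gene tied to trunk length, by -0.11 (95% interval -0.44 to 0.21). Nr6a1, Isl1 and Pou5f1 had overlapping groups.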

How the data were processed

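RNA of 3 tail and 3 brachial NPC samples was hybridized to 1 whole-transcript mouse array each. The authors deposited 1 log2 value per transcript cluster and array, made by gene-level RMA in the Affymetrix software Expression Console (both are named, without versions, in the submitters' processing notes). A human array is named in the methods, while the annotation used here is of mouse. The members and all gene lists were chosen with earlier results of these data known.

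Each of the 6 arrays held 41345 clusters, with medians of 4.82 to 4.91; 23521 clusters carried exactly 1 symbol. A gene was taken at its cluster with the highest mean, which left 22180 genes. Tail and brachial arrays were compared with limma 3.58.1 in R 4.3.3 (lmFit, eBayes, no block), with Benjamini-Hochberg adjustment over all genes and calls under 0.05. The step was tested on simulated data. An exact permutation test of 3 against 3 arrays cannot go below 0.10 and was not used. The methods name no test for the arrays; Student's t-test of their statistics section was an alternative. Lists are given as counts and medians, with no test. Genes named are the members, their direct partners, genes of the lists with large differences (not every such gene), and the 3 most correlated with Lin28b and with Gdf11. Precision is limited by the number of arrays. Sequences came from RefSeq (GRCm38.p6), matched by symbol for 12 of 12 let-7 genes; plots were drawn with matplotlib 3.10.9. Alternatives were the replicate block, other eBayes settings, array weights, the t-test, a filter on dim clusters, other cluster choices, quantile normalization, housekeeping centring and left-out arrays. After the values had been seen, leaving out brachial replicate 1 and tail replicate 3 together was added. The scanner files were not used here.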

Additional observations from a re-analysis of the deposited data

How the results depend on the processing

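No measured member changed direction or was called under any alternative that was run, and Lin28b, a dim cluster, had no value under the dim filter, which left 13502 genes. The labels do not say whether the replicate numbers pair the arrays. Same-numbered tail and brachial arrays deviated together with correlations of 0.24, -0.12 and 0.21, and arrays of unlike number with -0.33 to 0.15. With 3 arrays per group these values cannot settle the pairing. With the replicate block 123 genes were called higher and 71 lower in tail NPCs, and Gdf11 had an adjusted p of 0.258. The counts over all genes (14 and 9) moved to 0 and 0 with the t-test, 5 and 1 over all transcript clusters, 0 to 138 and 0 to 128 with 1 array left out, and 532 and 376 without both brachial replicate 1 and tail replicate 3; array weights gave 19 lower. Without tail replicate 1 the limma counts were 0 and 0 (819 higher and 852 lower before adjustment, at p under 0.05), and likewise without tail replicate 2 (829 and 883). Members with separate groups numbered 1 to 2 in each direction with 1 array left out and 2 in each without both arrays. Groups of fewer arrays separate more easily, and the share of all genes was not computed for these settings. Members separate with tail lower numbered 0 under the dim filter. That filter gave medians of 0.62 for the Gdf11 pathway list and 0.68 for the let-7 precursors, of which 1 of 12 was left (Mirlet7i), so that value is its own difference.

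The let-7 processing median was -0.070 to 0.16 with 1 array left out, and turned without brachial replicate 3. Of 854 values of 54 other named genes, 775 kept their direction and side of the threshold, 36 were called only under the alternative, 26 were no longer called and 17 turned direction. Leaving out both brachial replicate 1 and tail replicate 3 gave 18 of those 36 calls, among them Thbs1 (adjusted p = 0.00925), Tgfb1 (0.0151), Tll1 (0.0181) and Ccnd1 (0.0393). Leaving out 1 array, or both named above, gave -0.20 to 0.20 for Acvr2a, -0.031 to 0.35 for Acvr2b, -0.16 to 0.047 for Dis3l2, -0.22 to 0.70 for Isl1, -0.14 to 0.15 for Tut7 and -0.18 to 0.070 for Wfikkn2. Housekeeping centring gave -0.0080 for Acvr2a, array weights 0.059 and quantile normalization 0.0063 for Tut7, and Mstn ran from -0.69 with 1 array left out to 0.083 without both. Causes were not tested.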

Other observations

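Further gene groups next to the timing genes held 0 called genes. The 5 measured let-7 host transcripts had a median log2 difference of -0.016, with 0 called by limma and 0 passing before adjustment (p under 0.05). A list of Hmga2, Hmgn1, Hmgb1, Hmgb2, Cdkn2a and Cdkn2b, 6 measured genes that include the member Hmga2, had a median of 0.18. It also had 0 called and 0 passing before adjustment. The 19 measured cell cycle genes lay above 0 in 18 cases, with a median of 0.48, 0 called and 0 passing before adjustment. Their means were 8.96, 8.75 and 7.61 in tail replicates 1 to 3 and 8.16, 8.08 and 7.83 in brachial replicates 1 to 3, so tail replicate 3 was the lowest array of all.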
